A study of Rattus norvegicus with 6 samples.

Results

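The genes described here make and move bile acids in the hepatocyte. Of 8 genes named for this account, 7 were measured, by 9 probe sets out of 8740 on the array. They were Cyp7a1 (2 probe sets), Cyp7b1, Cyp27a1 (2 probe sets), Slc10a1, Abcb11, Abcb4 and Baat. A probe set was taken when the platform annotation gave it 1 of these names as its only gene symbol. The sterol hydroxylase Cyp8b1 had no probe set under that rule and was not analysed here.

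Liver total RNA came from male Sprague Dawley rats given liquid food through total enteral nutrition over 3 weeks, and each of 6 samples was hybridised to its own Affymetrix RG_U34A array. The diet of the 3 Control samples held 5% corn oil and supplied 187 kcal per kg of body mass to the 3/4 power per day. The diet of the 3 NASH samples, named for non-alcoholic steatohepatitis, held 70% corn oil and supplied 220 kcal on the same basis. Fat content and energy supply therefore differ together. The sources used here do not say whether samples were single animals or pools, so the spread that p-values rest on is that between samples and may be technical. Diet groups follow the sample titles, while the description field of every NASH sample carries the text of the first Control sample, so each direction below rests on the titles. The sources give neither the rats' age nor the hour of sampling.

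Bile acids are made from cholesterol in hepatocytes and are the main route by which the body disposes of cholesterol. In the classical route Cyp7a1 catalyses the first and rate-limiting step, and Cyp8b1 acts downstream to set the share of cholic acid. In the alternative route Cyp27a1 first oxidises the cholesterol side chain and Cyp7b1 then hydroxylates the resulting oxysterols. Baat joins the finished acids to taurine or glycine, Slc10a1 takes conjugated bile salts back up from portal blood, and Abcb11 pumps them across the canalicular membrane into bile. Abcb4, in the same membrane, moves phosphatidylcholine into bile, where it shields the duct lining from bile salts.

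No bile acid gene passed the test between diets. The genes with the widest separation were Cyp7b1 and Abcb4, both brighter in all 3 NASH arrays than in any Control array. Signals of Cyp27a1, Slc10a1, Abcb11 and Baat differed by at most 1.14-fold between group means. Cyp7a1 varied more within the NASH group than between the groups. Differences below are NASH minus Control on a log2(signal + offset) scale after quantile normalization, with an offset of 2.29 that makes fold changes of dim probe sets smaller. Of the 9 probe sets, 8 passed the filter on low signal, and 0 of the 8 were called (limma, Benjamini-Hochberg adjusted p under 0.05) over all 5244 probe sets tested (lowest adjusted p 0.503). Over the whole array 7 probe sets, 0.133%, were called. At an unadjusted p under 0.05 there were 2 of 8, Cyp7b1 and Abcb4, against 7.88% of all tested probe sets. The median difference was 0.18 over the 8 and −0.02 over all tested, with 6 of the 8 above 0.

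The arrays were of uneven brightness and some stood apart. Deposited trimmed mean signals lay between 73.6 and 117, and correlations between arrays over the tested probe sets between 0.908 and 0.971. NASH 2 held transcripts of brown fat and skeletal muscle. The summed normalized signal of 6 measured brown fat and adipocyte genes was 4870 there against 447 to 611 in the other arrays, and that of 6 muscle genes was 2380 against 60.7 to 95.8. Control 3 had the highest ratio of 3' to 5' actin control signal, 5.07 against 2.15 to 2.93, and its part in the values below was not tested. The instrument record held wash settings for 4 arrays and was blank for Control 2 and NASH 3. Among the 4, the recorded hybridisation times of Control 1 and Control 3 come before those of NASH 1 and NASH 2, so that their order and diet cannot be told apart there. Hepatocyte markers, with 8 of 9 measured, each had a probe set that was bright in every array, as the liver label implies. Some of their other sets were dim, such as rc_AA860062_at of Alb (25.3 to 58) and Z27513exon_i_at of Cps1 (0.318 to 2.27). The normalized signal of all hepatocyte marker sets summed to 65500 to 68100 in Control and 59400 to 62900 in NASH, so the groups did not overlap. The markers did not move together. Ttr differed by 0.03 and 0.01 and Serpina1 by −0.04 to 0.13 over their probe sets. Ambp differed by −0.27 and −0.42 and F10 by −0.91 and −0.80. The part of the lower sum in the differences below was not tested, and in whole tissue fewer hepatocytes and less RNA per cell cannot be told apart. Cholangiocyte markers (6 of 8 measured) summed to 103 to 143 in Control and 89.4 to 134 in NASH.

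Cyp7a1, the entry step of the classical route, gave the most uneven signal among these genes. Its probe set J05460_s_at had deposited signals of 152, 186 and 116 in Control 1 to 3 and of 70.4, 276 and 283 in NASH 1 to 3. NASH 1 was the lowest of all arrays and NASH 2 and NASH 3 were the highest, so that the Control values fell inside the NASH range. On the normalized log2 scale the means were 7.20 ± 0.45 in Control and 7.59 ± 1.29 in NASH (SD, n = 3 each). The NASH arrays spanned 5.17-fold and the Control arrays 1.79-fold. The difference was 0.39 ± 0.59 (standard error), or 1.31-fold with a 95% interval from 0.51 to 3.36 (limma adjusted p = 0.891). It was 1.12 without NASH 1 (limma unadjusted p = 0.0104, adjusted p = 0.568) and −0.06 without NASH 3.

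The second Cyp7a1 probe set, J05509Complete_seq_i_at, read at most 0.706 on any array and lay below the filter. It gave no usable level, and values so near the floor have no order between arrays. Cyp7a1 is known to follow a daily rhythm in rodents, with the clock output factor Dbp among its activators. Dbp lay below the filter, and its probe set J03179_g_at read 127 in Control 2 and 4.33 to 10.1 elsewhere. In Control 2 the Cyp7a1 signal (J05460_s_at) was the highest of the Control group, at 186. It was higher still in NASH 2 (276) and NASH 3 (283), where J03179_g_at of Dbp read 10.1 and 4.9. The part of the sampling hour in these values was not tested. Dbp is named here because of its values.

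Cyp7b1, the oxysterol hydroxylase of the alternative route, was brighter in NASH with little spread among controls. Probe set U36992_at read 25.7, 26.4 and 25.4 in Control 1 to 3 and 33.1, 54.3 and 50.5 in NASH 1 to 3. The groups did not overlap in the deposited signals or after normalization, with NASH 1 the nearest to Control. Normalized means were 4.75 ± 0.13 and 5.67 ± 0.55 (SD, n = 3 each). The difference was 0.91 ± 0.29, or 1.88-fold with a 95% interval from 1.18 to 3.01, and did not pass (limma unadjusted p = 0.0145, adjusted p = 0.503). It was 0.67 without NASH 3, 1.21 without NASH 1, and 0.87 without NASH 2, which held the fat and muscle transcripts. Between the arrays with a filled wash record it was 0.67, and between the pair with a blank one it was 1.40.

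Cyp27a1, the mitochondrial sterol side chain hydroxylase, was nearly level between diets. Probe set M38566mRNA_s_at read 1060, 894 and 689 in Control 1 to 3 and 873, 751 and 739 in NASH 1 to 3. Control 1 was brightest and Control 3 dimmest, and the NASH values lay between them. The difference was 0.05 ± 0.19, or 1.04-fold with a 95% interval from 0.759 to 1.41 (limma adjusted p = 0.958), and turned to −0.14 with no scaling between arrays. The other probe set, Y07534cds_s_at, read 630, 434 and 404 in Control and 617, 475 and 430 in NASH. Its deposited values overlapped. After normalization they were apart, but narrowly, at 8.63 to 9 in Control and 9.04 to 9.11 in NASH, and the difference was 0.19 ± 0.18 (limma adjusted p = 0.796). Without Control 3, the dimmest array in both probe sets, the differences were −0.09 and 0.07.

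Baat, the conjugating enzyme, was slightly dimmer in NASH. Probe set D43964_at read 1680, 1210 and 1470 in Control 1 to 3 and 1350, 989 and 1110 in NASH 1 to 3. After normalization the Control arrays were almost identical, at 10.40 ± 0.02, against 10.26 ± 0.19 in NASH (SD, n = 3 each), and NASH 3 was the brightest of all 6. The groups therefore overlapped. The difference was −0.15 ± 0.15, a ratio with a 95% interval from 0.714 to 1.14 (limma adjusted p = 0.814). NASH 2 was the dimmest, and without it the difference was −0.06. Without NASH 3 it was −0.24, and with no scaling between arrays −0.34, where the median of all probe sets was itself −0.17.

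Slc10a1, the sodium-dependent bile salt uptake transporter of the sinusoidal membrane, did not separate the diets. Probe set M77479_at read 1560, 1120 and 734 in Control 1 to 3 and 1240, 734 and 858 in NASH 1 to 3. The highest and the lowest normalized values, 10.29 and 9.49, were both in Control, and all NASH values lay between them. The difference was −0.03 ± 0.25 with a 95% interval from 0.65 to 1.47 as a ratio (limma adjusted p = 0.981). Its sign turned to 0.12 without NASH 2 and was −0.29 without Control 3.

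Abcb11, the bile salt export pump, also overlapped between diets. Probe set AF010597_s_at read 541, 308 and 373 in Control 1 to 3 and 474, 364 and 390 in NASH 1 to 3. Normalized means were 8.59 ± 0.16 and 8.76 ± 0.18 (SD, n = 3 each), with Control 2 lowest and NASH 3 highest. The difference was 0.17 ± 0.19, or 1.12-fold with a 95% interval from 0.834 to 1.52 (limma adjusted p = 0.836). It was 0.07 without NASH 3 and 0.04 with no scaling between arrays. Between the arrays with a filled wash record it was 0.02 and between the pair with a blank one 0.47.

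Abcb4, the canalicular phospholipid flippase, was brighter in NASH and close to uniform there. Probe set L15079mRNA_s_at read 93.4, 96.6 and 37.7 in Control 1 to 3 and 137, 129 and 98.4 in NASH 1 to 3. The deposited groups were apart by a small margin, 98.4 in NASH 3 against 96.6 in Control 2, and Control 3 lay far below the other arrays. After normalization the NASH arrays agreed closely, at 7.03 ± 0.03, while Control gave 6.14 ± 0.67 (SD, n = 3 each). The difference was 0.89 ± 0.33, or 1.85-fold with a 95% interval from 1.10 to 3.13, and did not pass (limma unadjusted p = 0.0265, adjusted p = 0.564). Without Control 3, the array with the high actin ratio, the difference was 0.51 (limma adjusted p = 0.605), and without Control 2 it was 1.19. Without NASH 2 it stayed at 0.89. Between the arrays with a filled wash record it was 1.15 and between the pair with a blank one 0.38.

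Abcb4 has close paralogs in the drug efflux pumps Abcb1a and Abcb1b, whose transcripts its probes may share. Their own probe sets lay below the filter and were named here for this reason. Abcb1a read 1.16 to 9.95 over the 6 arrays and Abcb1b 0.513 to 12.4, with the highest value of both in NASH 1. Whether the Abcb4 probes bind them was not tested.

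**Figure D1:**
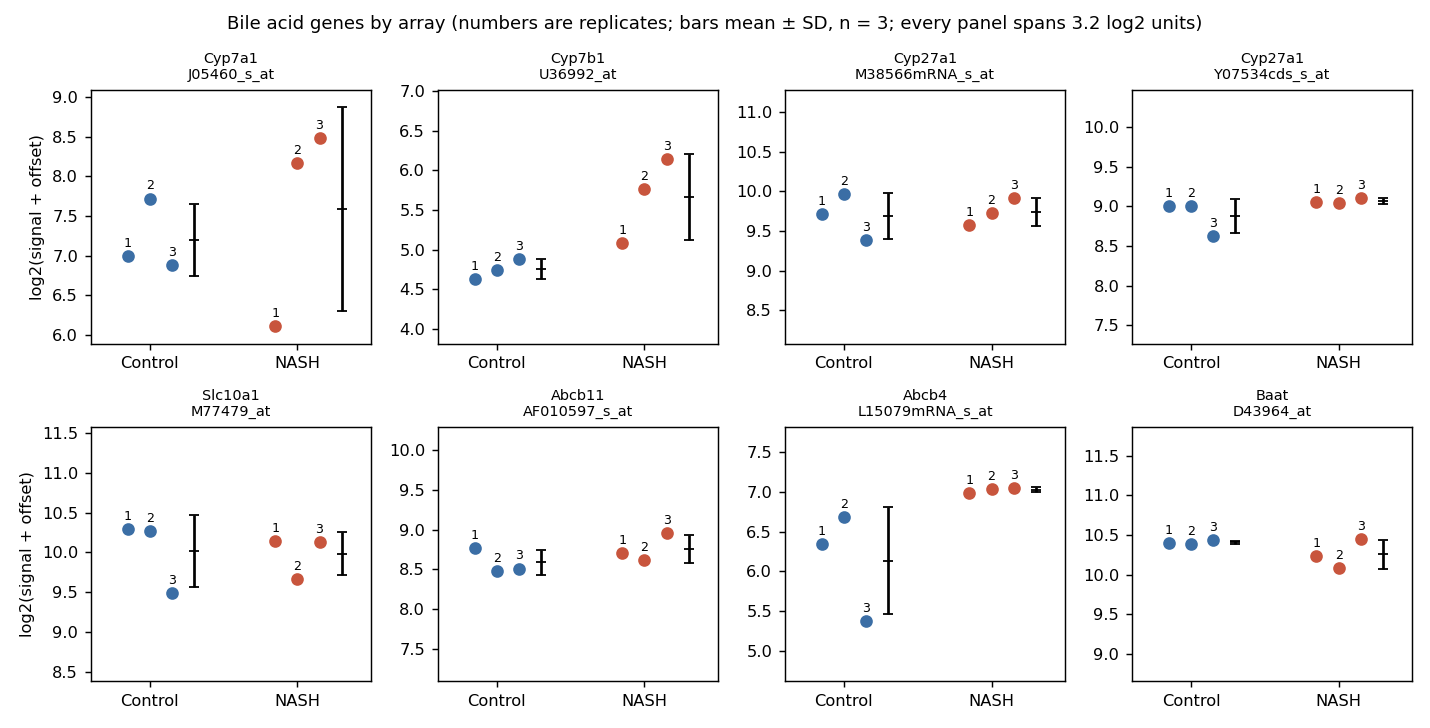
Normalized log2(signal + offset) of the 8 tested probe sets in each array, Control in blue and NASH in red, with the replicate number above each point and the group mean ± SD (n = 3) as a black bar. Cyp7b1 and Abcb4 have all NASH points above all Control points, Cyp7a1 spans 6.11 to 8.48 within NASH, and Control 3 is the lowest array for Cyp27a1, Slc10a1 and Abcb4.

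Which array was brightest for these genes depended on the scaling. After normalization NASH 3 was highest for 6 of the 8 tested probe sets, against 13.1% of all tested probe sets. In the deposited signals, where NASH 3 had the lowest trimmed mean, it was highest for 1 of 8 (Cyp7a1) and Control 1 for 5 of 8. Control 3 was lowest for 4 of 8 after normalization, against 21.5% of all, and for 5 of 8 in the deposited signals. After normalization the groups did not overlap for 3 of the 8 (Cyp7b1, Abcb4 and the Y07534cds_s_at set of Cyp27a1), all with NASH higher. Over all tested probe sets the groups did not overlap for 14.3%, and did so with NASH higher for 6.56%. With so few probe sets these shares are a description.

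**Figure D2:**
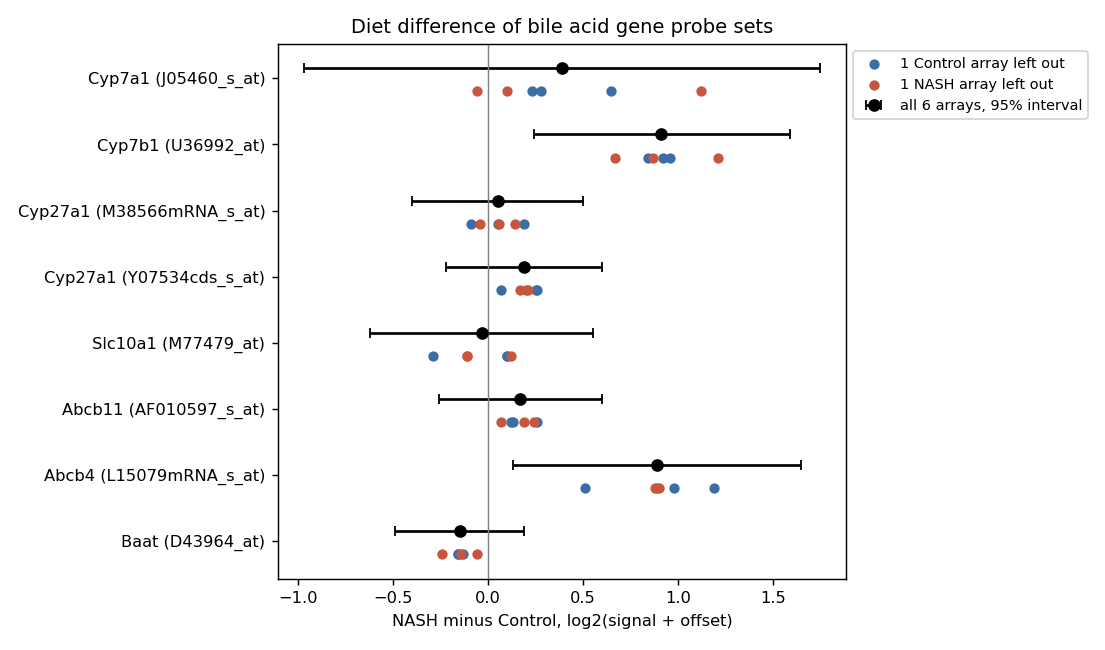
Difference between NASH and Control on the log2(signal + offset) scale for the 8 tested probe sets, with the limma 95% interval from all 6 arrays in black and the values with 1 array left out in colour. The intervals of Cyp7b1 (0.24 to 1.59) and Abcb4 (0.13 to 1.65) lie above 0 before adjustment for multiple tests, and the leave-out values of Cyp7a1 range from −0.06 to 1.12.

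Because Cyp7b1 and Abcb4 stood out, 3 differences between genes were computed within each array, where a factor common to a whole array has little part. The normalized values were used, and quantile normalization acts by brightness, so its part need not cancel between dim and bright probe sets. The pairs were chosen after their values were seen, and 0.1 is the smallest p that an exact permutation test of 3 against 3 arrays can give. A level of such a difference has no meaning of its own because probe sets differ in response, and its shift between diets is the quantity compared. For Abcb4 minus Abcb11, the lipid and the bile salt exporters of bile, the values were −2.42, −1.80 and −3.13 in Control and −1.71, −1.58 and −1.91 in NASH. The groups overlapped, and the shift was 0.72 (exact permutation p = 0.2, two-sided, 0.3 adjusted over the 3 pairs). A difference between the shifts of Abcb4 and Abcb11 was therefore not shown, nor could this test have passed 0.05 with 3 arrays per group.

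Cyp7b1 minus Cyp27a1 (M38566mRNA_s_at), the steps of the alternative route, was −5.08, −5.21 and −4.51 in Control and −4.49, −3.96 and −3.77 in NASH. The groups were apart by the narrow gap between Control 3 and NASH 1, with a shift of 0.86 (exact permutation p = 0.1, two-sided, 0.3 adjusted over the 3 pairs). The separation depended on the Cyp27a1 probe set. Cyp7b1 was 4.88 in Control 3 and 5.08 in NASH 1, and Y07534cds_s_at was 8.63 and 9.05. With that set Control 3 lies above NASH 1, so the groups overlap. For Cyp7b1 minus Cyp7a1, which sets the alternative against the classical route, the shift was 0.52 with overlapping groups (exact permutation p = 0.5, two-sided, also 0.5 adjusted).

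**Figure D3:**
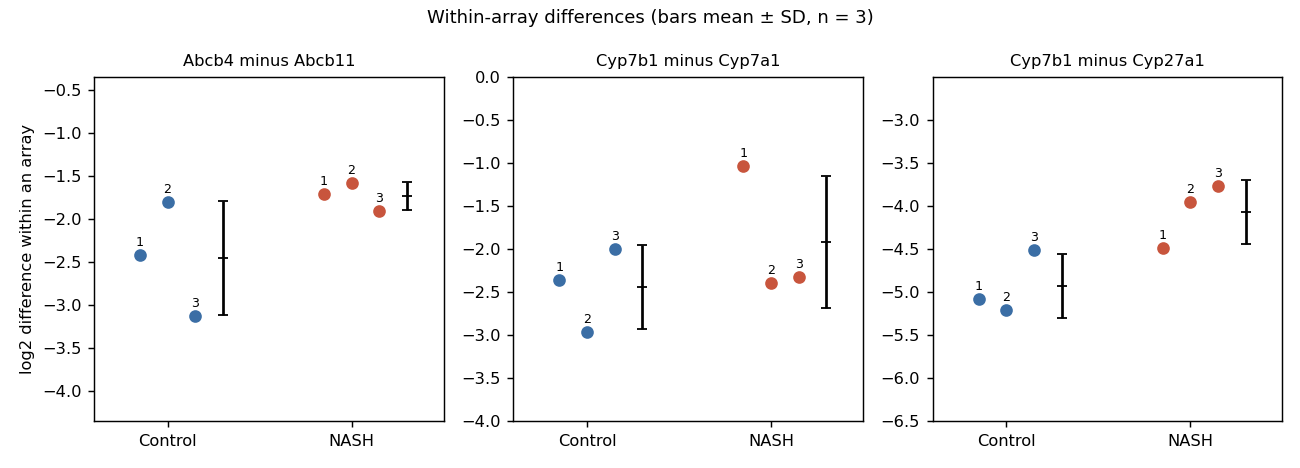
Within-array log2 difference between pairs of probe sets, Abcb4 minus Abcb11, Cyp7b1 minus Cyp7a1 and Cyp7b1 minus Cyp27a1, for Control in blue and NASH in red, with replicate numbers and the mean ± SD (n = 3) in black. The pair Cyp7b1 and Cyp27a1 (M38566mRNA_s_at) has no overlap between diets, while in the other pairs Control and NASH points overlap.

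Over the 6 arrays, Abcb4 and the Y07534cds_s_at set of Cyp27a1 tracked each other most closely of all pairs of these probe sets (Pearson r = 0.96), both with Control 3 lowest and NASH 3 highest after normalization. In the deposited signals Control 3 was also lowest for both, but the highest arrays were NASH 1 for Abcb4 (137) and Control 1 for Cyp27a1 (630). With the other Cyp27a1 probe set, M38566mRNA_s_at, Abcb4 correlated at 0.66. The 2 Cyp27a1 probe sets correlated at 0.73 and Cyp7a1 (J05460_s_at) with Cyp7b1 at 0.69. Cyp7a1 and Slc10a1 were at −0.04. These correlations are over 6 arrays that were normalized together, and are given as a description. The RefSeq promoter windows of Abcb4 and Cyp27a1, the genes of the closest pair of probe sets, are printed here to show how their start sites differ. RefSeq promoters (GRCr8, 250 bases before to 50 after the annotated start, on the gene's strand) matched 5 of the 8 genes. Capitals mark matches on either strand to a set of short motifs. These were the nuclear receptor core AGGTCA, the TATA box spelled as TATAAA, the CCAAT box, the GC box spelled as GGGCGG, the E-box spelled as CACGTG, and the core of HNF1 sites spelled as GTTAAT.
Abcb4, chr4:26164096-26164395, minus strand: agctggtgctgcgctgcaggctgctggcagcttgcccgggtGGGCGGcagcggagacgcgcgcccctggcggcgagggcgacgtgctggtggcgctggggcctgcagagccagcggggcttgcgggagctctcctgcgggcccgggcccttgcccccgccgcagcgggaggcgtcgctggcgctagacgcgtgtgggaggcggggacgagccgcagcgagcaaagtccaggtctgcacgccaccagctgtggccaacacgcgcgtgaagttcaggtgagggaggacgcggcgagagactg
Cyp27a1, chr9:83713282-83713581, plus strand: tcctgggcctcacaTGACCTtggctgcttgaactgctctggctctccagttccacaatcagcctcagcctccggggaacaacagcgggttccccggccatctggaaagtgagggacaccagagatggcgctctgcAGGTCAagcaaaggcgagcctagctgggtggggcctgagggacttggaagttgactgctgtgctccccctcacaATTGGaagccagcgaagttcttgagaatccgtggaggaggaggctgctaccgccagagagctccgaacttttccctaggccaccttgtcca

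The Abcb4 window was 74.3% G or C and held 1 match, a GC box at bases 42 to 47. The Cyp27a1 window was 59.3% G or C and held the nuclear receptor core at bases 136 to 141, the same core on the other strand at 15 to 20, and a CCAAT box on the other strand at 210 to 214. The nuclear receptor core was found in 16.2% of all 33469 promoter windows of that length, the GC box in 33.1% and the CCAAT box in 37.5%. The TATA box (14.2% of windows), the E-box (6.42%) and the HNF1 core (7.45%) had no match in either. A match is a description of letters, and the windows shared no motif among those searched.

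The annotated probe sets whose pattern over the 6 arrays was most like that of Cyp7a1 (J05460_s_at), out of 4298 compared, were Ttr (r = 0.998), Tspan3 (0.989) and Or2c1 (0.985). Those most like Abcb11 were Pex14 (r = 0.971), Pak2 (0.970) and Mtch2 (0.964). These likenesses over 6 arrays are descriptions with no p. The Ttr set, rc_AA945169_at, ran only from 11.88 to 12.1, against 6.11 to 8.48 for Cyp7a1. Its other set, rc_AA945169_g_at, had another order, with Control 1 highest (12.5) and Control 2 lowest (12.38).

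Other genes of bile acid synthesis gave 0 calls among 15 tested probe sets of 8 genes (limma, lowest adjusted p 0.553, 1 at an unadjusted p under 0.05), and probe sets of the same gene often disagreed in size. Over all 5244 tested probe sets 0.133% were called and 7.88% had an unadjusted p under 0.05. The median difference of the 15 was 0.18 and 10 of 15 were above 0, against 2469 above and 2775 below over all tested. Abcd3, the peroxisomal membrane transporter for bile acid precursors, differed by 1.22 ± 0.43 with rc_AA946532_at (limma adjusted p = 0.553) and by −0.11 with D90038_at. The first set read 463, 316 and 118 in Control 1 to 3 and 765, 454 and 484 in NASH 1 to 3. Control 3 was again the lowest there, but in D90038_at it was the highest, at 205 against 94.8 to 153 elsewhere. Without Control 3 the difference was 0.67 with rc_AA946532_at and turned to 0.17 with D90038_at, so that both were then above 0.

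Hsd17b4, the peroxisomal bifunctional enzyme that shortens the side chain, had differences above 0 with all 4 probe sets, from 0.34 to 1.69. All 4 rest in part on Control 3, which in rc_AI101743_s_at read 7.61 against 81.4 to 191 elsewhere. Without Control 3 the differences were 0.64 for rc_AI101743_s_at (from 1.69), 0.33 for rc_AI013834_s_at (from 0.64), 0.03 for S83279_at (from 0.49) and 0 for S83279_g_at (from 0.34). Akr1d1, the steroid reductase of the ring pathway, differed by 0.41 with D17309_at and −0.40 with S80431_s_at. The thiolase and carrier gene Scp2 differed by 0.38 and 0.15, the racemase Amacr by −0.25 and Akr1c14, the reductase that follows Akr1d1, by −0.16 and 0.01.

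Uptake, efflux and canalicular genes other than those above gave 0 calls among 6 tested (limma, lowest adjusted p 0.768, 0 at an unadjusted p under 0.05). All 6 overlapped between diets, with a median difference of −0.20. Among the 5244 tested on the array 0.133% were called, 7.88% had such a p and 14.3% did not overlap. With 6 probe sets these counts are a description. Abcc2, the canalicular exporter of conjugated anions, differed by 0.12 ± 0.23, and Abcc3, its basolateral relative, by −0.26 ± 0.31. The organic anion uptake carriers Slco1a1, Slco1a4 and Slco2b1 differed by −0.14, −0.31 and 0.06, and the epoxide hydrolase Ephx1 by −0.30. Slco1a4 read 229 in NASH 2 and 515 to 685 in the other arrays. Single arrays moved these values. Without NASH 2, with its fat and muscle transcripts, Slco1a1 and Slco1a4 both turned to 0.18 and Ephx1 went to −0.07. Slco2b1 was −0.58 without Control 3 and 0.54 without Control 2. Abcc3 was 0 without NASH 3, and Abcc2 ranged from 0.02 (without Control 3) to 0.32 (without Control 2).

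Regulators gave 0 calls among 14 tested probe sets of 9 genes (limma, lowest adjusted p 0.503, 2 at an unadjusted p under 0.05), with 5 above 0 and 9 below and a median of −0.12. Over all tested probe sets 0.133% were called, 7.88% had such a p, and 2469 lay above 0 and 2775 below. Foxa2, a forkhead factor of hepatocytes with bile acid transporters among its targets, read 103, 50.9 and 94.8 in Control 1 to 3 and 47.5, 28.4 and 30.6 in NASH 1 to 3. All NASH values were below all Control values, with a difference of −0.97 ± 0.31 (limma unadjusted p = 0.0152, adjusted p = 0.503) that was −0.76 without NASH 2. Nr1h4, the bile acid receptor FXR, differed by −0.34 ± 0.37, and NASH 2 was its lowest array at 65.5 against 121 to 197. Without NASH 2 its difference was 0.09.

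Nr0b2, the FXR-induced repressor SHP that lowers Cyp7a1 transcription, differed by −0.48, −0.16 and −0.46 with its 3 probe sets (limma adjusted p from 0.702 to 0.909). All 3 overlapped between diets, and after normalization Control 2 was the highest Control array in each. Without Control 2 the difference of D86580_at was −0.16 and that of D86745cds_s_at turned to 0.16, and without NASH 3 that of D86745exon_s_at was −0.22. Rxra, the heterodimer partner of FXR, differed by 0.54 ± 0.23 (limma adjusted p = 0.618). The sterol receptor Nr1h2 (U14533_at) differed by −0.45 and the fatty acid receptor Ppara by −0.61, neither past the threshold.

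Of the genes that supply cholesterol, Scarb1 and Lipc were bright enough to test, and 0 of their 4 probe sets were called (limma, lowest adjusted p 0.586, 1 at an unadjusted p under 0.05). The shares over all tested probe sets were 0.133% called and 7.88% with such a p. Scarb1, the receptor through which hepatocytes take up HDL cholesterol, was, after normalization, brighter in all 3 NASH arrays than in any Control array with each of its 3 probe sets. The differences were 0.50 ± 0.24, 0.50 ± 0.23 and 0.71 ± 0.28 (limma adjusted p from 0.586 to 0.618). With 1 array left out they lay between 0.28 and 0.92. In the deposited signals the diets overlapped with all 3 probe sets. The 3 sets measure 1 gene, and 6.56% of all tested probe sets were apart with NASH higher. Lipc, hepatic lipase, differed by −0.44 ± 0.22 and overlapped between diets. Of 53 genes listed for the wider pathway, 31 had a probe set and 25 passed the filter, and 9 of 39 tested probe sets did not overlap between diets, against 14.3% of all.

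**Figure D4:**
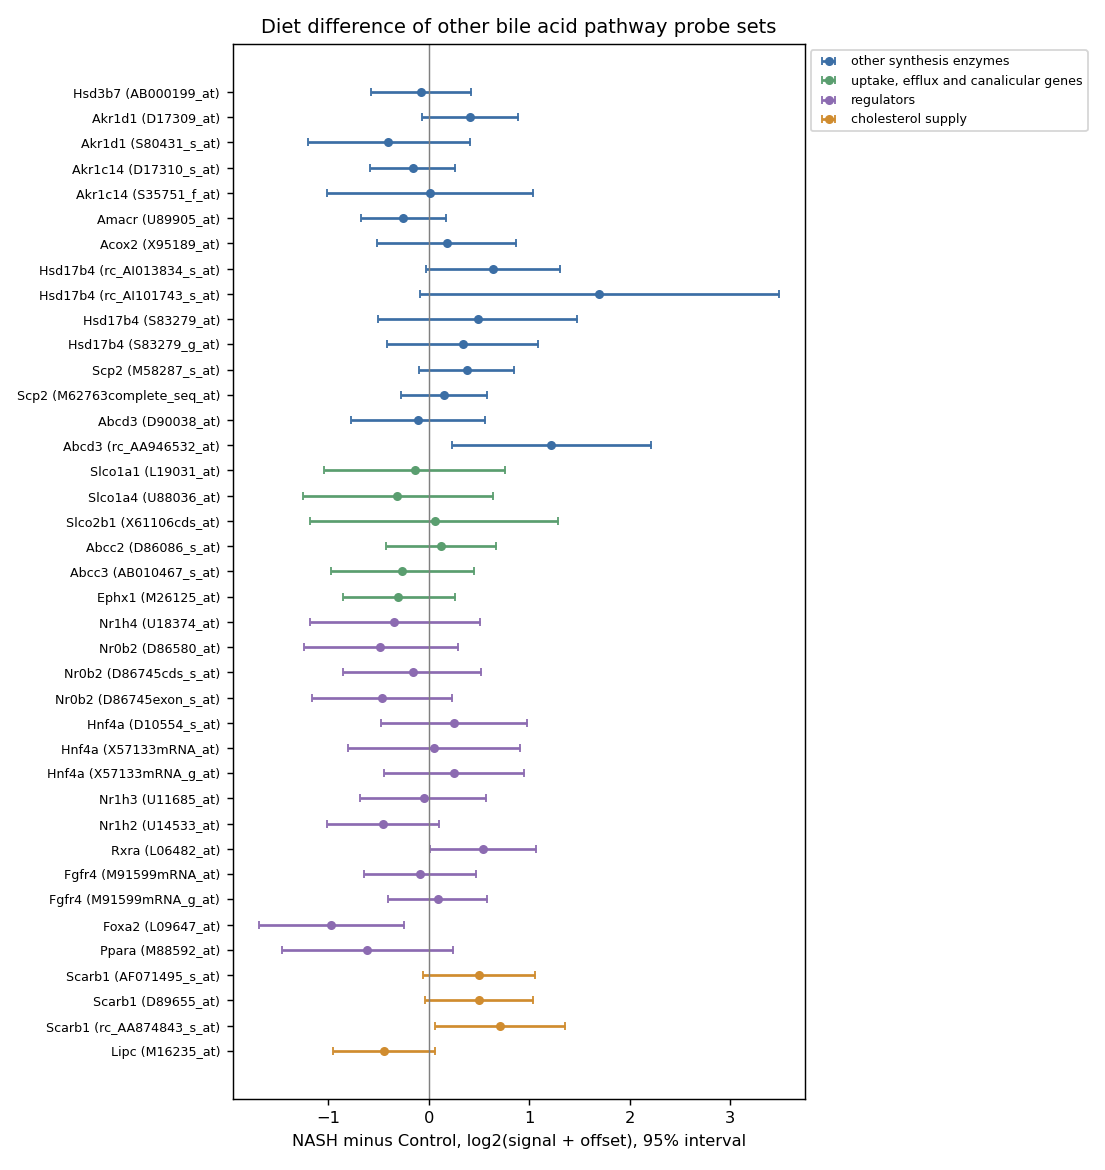
Difference between NASH and Control on the log2(signal + offset) scale with limma 95% intervals for 39 tested probe sets of the wider bile acid pathway, coloured by list. Most intervals cross 0, Abcd3 (rc_AA946532_at), Rxra, Foxa2 and 1 Scarb1 probe set do not before adjustment, and probe sets of Akr1d1 and Abcd3 lie on both sides of 0.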

How the data were processed

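The authors deposited linear signal intensity values per probe set, made with MAS5 per the submitters' processing notes; the sources used here give neither a version nor a scaling target. Other files, deposited per array, record, per the file headers, the chip type, tissue, washing and scanning but no expression. Deposited trimmed means (2%) differed between arrays, so arrays were quantile normalized and set to log2(signal + 2.29), the offset being the 10th percentile. Of 8799 probe sets, 59 controls were left out. Those with mean log2 above the 40th percentile (3.95), 5244, were tested with limma 3.58.1 in R 4.3.3 (lmFit and trended eBayes, no covariates, residual degrees of freedom 4, prior 3.90) and Benjamini-Hochberg adjustment. Groups and replicate numbers came from sample titles, although the free-text description of all 6 samples, NASH included, repeats that of the first Control sample. The annotation gave 1 symbol for 7006 probe sets, several for 308 (not named) and none for 1426.

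Genes named were all those of the account, up to 6 per pathway list by smallest p, and the 3 most correlated probe sets to Cyp7a1 and Abcb11. Genes, lists and tests were chosen with earlier results of these data known. Alternatives covered scaling, offset, filter, trend, array weights, blocks, threshold and left-out arrays. On simulated data built from these arrays (200 of 5244 probe sets shifted, 20 simulations), this comparison recovered 35.4% of 2-fold, 78.4% of 4-fold and 93.2% of 8-fold shifts. The simulated noise was independent between probe sets. The arrays themselves gave 7 calls, and with fewer changed probe sets than the 200 simulated the recovered shares may be lower. The small number of arrays limits the precision. Promoters came from RefSeq (GRCr8), and permutation tests from SciPy 1.17.1.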

Additional observations from a re-analysis of the deposited data

How the results depend on the processing

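No bile acid gene probe set and no probe set of the wider pathway was called in any of the 18 alternative settings. The lowest adjusted p of limma for a bile acid gene was 0.303, for Abcb4 with array weights. The differences of Cyp7b1 and Abcb4 stayed above 0 throughout, from 0.67 to 1.21 and from 0.51 to 1.20. The sign turned for Cyp7a1 (−0.06 to 1.12 with 1 array left out), for Cyp27a1 M38566mRNA_s_at (−0.09 to 0.19 with 1 array left out, −0.14 with no scaling) and for Slc10a1 (−0.29 to 0.12 with 1 array left out, 0.24 without both Control 2 and NASH 2, 0.02 on arrays with a filled wash record). The count of 7 calls over all probe sets was 14 with no scaling or at an adjusted p under 0.1, 18 with array weights, 16 without both Control 2 and NASH 2, 3 without the trend or with the wash record as a block, 1 on arrays with a filled wash record, 0 with no filter, and 0 to 17 with 1 array left out. The cause was not tested. With the replicate block it was 1 and no bile acid gene was called. The titles link same-numbered arrays only by their number. Correlations of deviations were 0.05, −0.02 and 0.07 for these pairs and −0.13 to 0.08 for the others, which cannot show whether samples were matched. With no scaling the median of all differences was −0.17, against −0.02. By the simulation, shifts of 2-fold would mostly be missed.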
